A study of Mus with 3 samples.

Results

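Classical monocytes marked by Ly6c2 were followed in single-cell RNA sequencing of whole mouse lung. A cell was taken as a member when it held at least 1 raw UMI (unique molecular identifier, 1 counted RNA molecule) of Ly6c2, at least 1 of Ccr2 and at least 1 over F13a1, Vcan and Ms4a4c together. It also had fewer than 5 UMIs over C1qa, C1qb and C1qc, none of Cd3d, Cd3e, Cd3g, Cd79a or Ncr1, less than 0.5% of its UMIs from Chil3 and less than 3% from S100a8 and S100a9. This rule found 160 of 14441 kept cells, namely 63 in the wild-type PBS library, 84 in the wild-type ovalbumin library and 13 in the DJ-1 knockout ovalbumin library. The study asked how loss of DJ-1 bears on allergic airway inflammation. The libraries were WT PBS (wild type, PBS challenge), WT OVA (wild type, ovalbumin challenge) and DJ-1 KO OVA (DJ-1 knockout, ovalbumin challenge), and values given in 3s keep this order. Each was made from the lungs of female mice aged 6 to 12 weeks. Cells of 3 mice were pooled into each library and each group is 1 library, so no difference below has a replicate check and none was tested. The sample title of the WT PBS library also names an ovalbumin challenge, and its group was taken from the WT_PBS part of that title and from its treatment label. A knockout given PBS is not among the samples analysed here, so a difference between the ovalbumin libraries cannot be told apart from a genotype difference that was there without allergen. WT OVA serves in both comparisons.

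Classical monocytes are made in the bone marrow, carry Ly6C on their surface, and leave the marrow and enter tissue by way of the chemokine receptor CCR2. In tissue they can become macrophages or antigen-presenting cells, and in the circulation they can become nonclassical monocytes, which lose Ly6C and CCR2 and gain CX3CR1. They take part in allergic lung inflammation as precursors of inflammatory macrophages and of monocyte-derived dendritic cells. DJ-1, the protein encoded by Park7, is a small protein known for its role in the response to oxidants.

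Ly6c2, Ccr2, F13a1, Vcan and Ms4a4c chose the members, so their levels are given only as a description. Levels are UMIs summed over the members of a library scaled to 1000000 UMIs of those members (counts per 1000000, CPM). Ly6c2 stood at 1457, 1021 and 1009 CPM in the 3 libraries, and Ccr2 at 701, 496 and 634 CPM. F13a1, a coagulation factor subunit used as a monocyte marker, stood at 579, 570 and 893 CPM. Next to all other kept cells of the same library, the genes with the highest lowest-of-3-libraries excess were F13a1 (33.1-fold), Clec4a1 (20.6-fold), Ms4a6c (20.2-fold), Plac8 (15.6-fold), AI607873 (12.5-fold) and Ly6c2 (11.7-fold), followed by Irf5, Emilin2, Ccr2, S100a4, Cd300a, Plbd1, Cybb, Ifitm3 and Ly86. This order describes cells chosen partly on the same genes. The members taken as a whole carried the markers of the label, with the exceptions described next.

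Several members carried the RNA of other lung cells. In 6 WT PBS members, 11 WT OVA members and 1 DJ-1 KO OVA member, at least 20 UMIs came from alveolar type 2, club, fibroblast, natural killer or neutrophil markers, or the cell exceeded 15000 UMIs. These 18 cells are called mixed members, a definition set after their values were seen. They held 19.3%, 39.7% and 19.0% of all member UMIs. Their median depth was 19138, 13095 and 13151 UMIs, against 8719, 4338 and 4015 UMIs in the other members. In WT OVA the mixed members held 98.6% of the alveolar type 2 marker UMIs and 99.4% of the club marker UMIs. The doublet caller Scrublet called 0, 2 and 0 members as doublets, and in DJ-1 KO OVA it called 3 of all 4506 scored cells, which is too few to rely on. Many results below are therefore also given without the mixed members, with 57, 73 and 12 members.

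**Figure D1:**
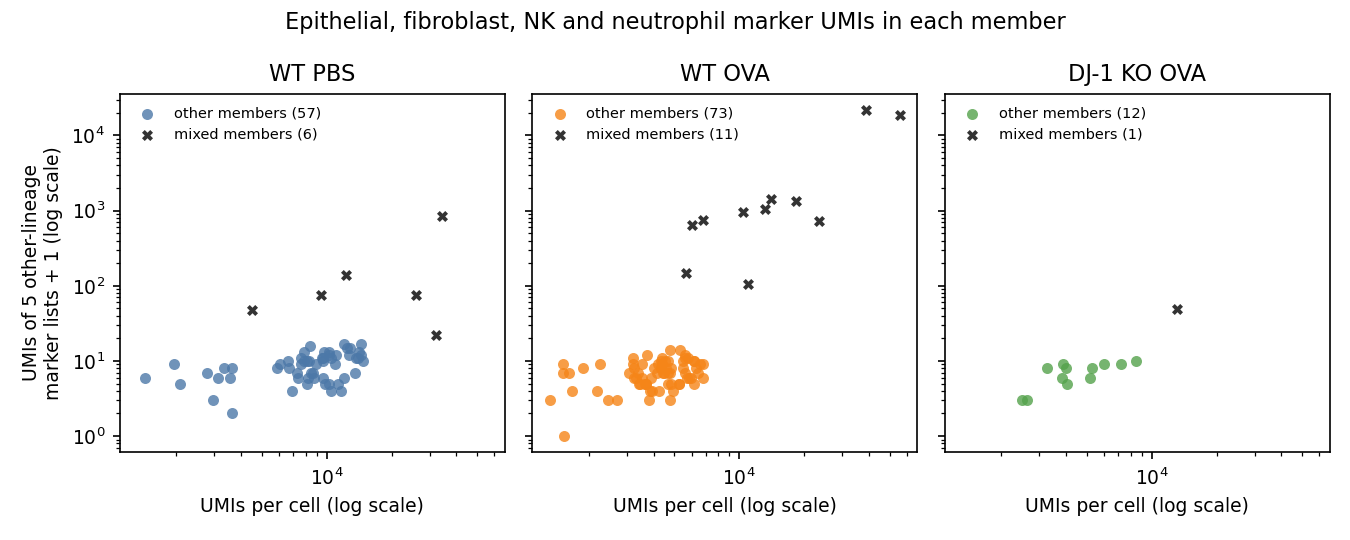
Each point is 1 member cell, with its UMI count on the x axis and the UMIs of the alveolar type 2, club, fibroblast, natural killer and neutrophil markers plus 1 on the y axis, both on log scales. Crosses are the 6, 11 and 1 mixed members, and in WT OVA they stand well above the 73 other members.

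A second set of members went against the label, described first in the knockout library. Of its 13 members, 3 had 0 UMIs of F13a1 and Vcan, 1 UMI of Ms4a4c and 0, 0 and 1 UMIs of Lyz2, the lysozyme of myeloid cells. The same 3 cells held 12, 9 and 34 UMIs of the markers of type 2 conventional and monocyte-derived dendritic cells and 6, 2 and 1 UMIs of Flt3, a receptor of dendritic cells and their precursors. The other 10 knockout members held 19 to 71 Lyz2 UMIs. Such cells also occurred in the wild-type libraries. In WT PBS, 1 member had 1 Lyz2, 0 F13a1, 0 Vcan and 6 Flt3 UMIs, with 18 UMIs of those dendritic cell markers. In WT OVA, 1 member had 3 Lyz2, 1 F13a1, 0 Vcan and 1 Flt3 UMIs, with 21 UMIs of those markers. At least 1 Flt3 UMI was present in 9, 9 and 4 members. The members without Flt3 numbered 54, 75 and 9, and results that turn on these cells are given without them, again a choice made after the values were seen.

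**Figure D2:**
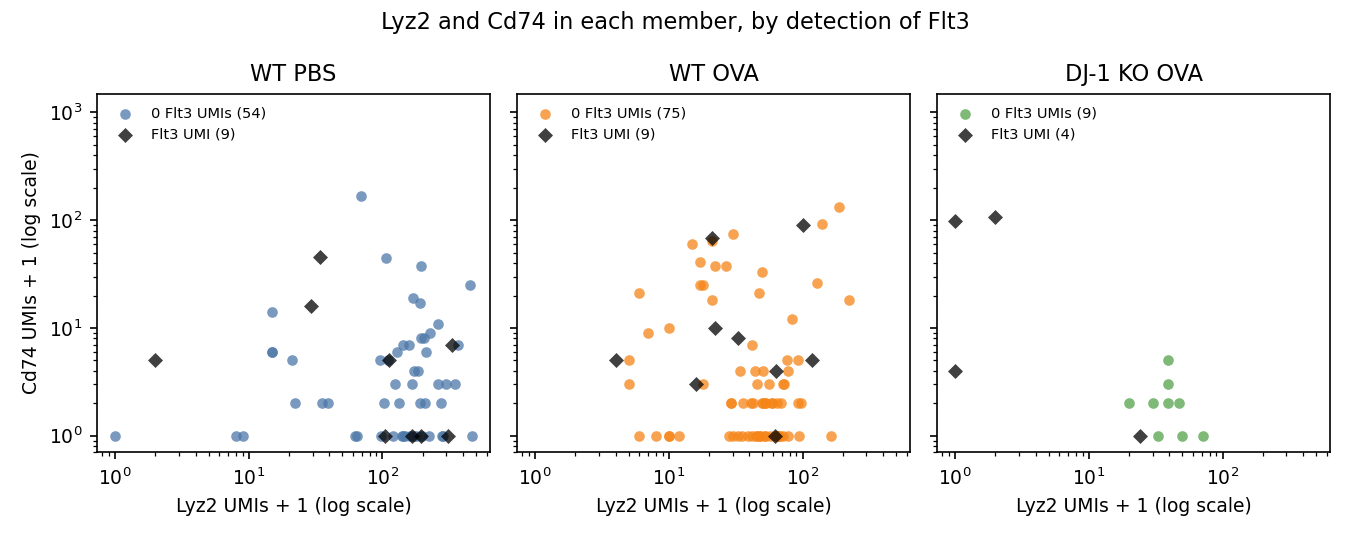
Each point is 1 member cell, with Lyz2 UMIs plus 1 on the x axis and Cd74 UMIs plus 1 on the y axis, both on log scales. Diamonds are the 9, 9 and 4 members with a Flt3 UMI, and in DJ-1 KO OVA the 2 cells with 97 and 106 Cd74 UMIs are Flt3 members with 0 and 1 Lyz2 UMIs.

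Markers of other lineages were also summed over the members. Interstitial macrophage markers, some of which monocytes express, summed to 1125, 795 and 749 CPM, and alveolar macrophage markers, which include the rule's Chil3, to 1328, 664 and 1470 CPM. Club cell markers summed to 554, 73682 and 980 CPM over all members and to 328, 790 and 960 CPM without mixed members. Eosinophil markers were at 0 UMIs in the members of all 3 libraries. T cell markers summed to 0, 1.95 and 28.8 CPM and B cell markers to 8.13, 7.81 and 0 CPM. The rule allowed no UMIs of Cd3d, Cd3e, Cd3g or Cd79a, and Trbc2 was not found in the data. Of the T cell list only Lat could therefore count, and of the B cell list all but Cd79a, so these low sums were partly fixed by the rule. Nonclassical monocyte markers outnumbered classical ones in 18, 30 and 4 members. That list includes Nr4a1, which is also an immediate early gene.

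Members had a median of 9350 UMIs per cell in WT PBS, 4502 in WT OVA and 4040 in DJ-1 KO OVA, beside kept-cell medians of 4128, 2108.5 and 1653. In all, 614988, 512185 and 69398 member UMIs were counted. WT PBS and DJ-1 KO OVA shared 372 cell barcodes, and the cell with fewer UMIs was removed from each such pair. None of the removed cells would have met the rule.

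The members' rule had limits that other cells narrowly missed. Ly6c2 alone was detected in 763, 915 and 511 cells, and adding Ccr2 left 209, 218 and 89. The marker sum of F13a1, Vcan and Ms4a4c left 115, 109 and 25, and the C1q limit 113, 108 and 25. The T cell, B cell and natural killer limits left 82, 89 and 16. The Chil3 limit then removed 16, 3 and 3 cells and the S100a8 and S100a9 limit 3, 2 and 0. Cells just inside the Chil3 limit (0.25% to 0.5% of UMIs, 12, 11 and 3 cells) had 19699, 11657 and 9956 CPM of Lyz2. Cells just outside it (0.5% to 1%, 14, 3 and 2 cells) had 19358, 11797 and 9513 CPM.

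The share of classical monocytes was lower in the knockout library and, between the wild-type libraries, depended on the cell filter and the rule. It was 1.61% of kept cells in WT PBS (95% Clopper-Pearson interval 1.24 to 2.06), 1.38% in WT OVA and 0.293% in DJ-1 KO OVA. The WT OVA share was 0.855 of the WT PBS share (interval 0.610 to 1.21), and among cells with at least 1000 genes it was the higher of the 2, by 0.37 on the log2 scale. With at least 2 UMIs required of Ly6c2 and of Ccr2 it was the lower, with a log2 ratio of -0.61 (-1.19 to -0.033). The DJ-1 KO OVA share was 4.71-fold lower than the WT OVA share (interval 2.61 to 9.21). These and all later intervals cover counting error only, since mice, dissociation and capture were not replicated. Without the mixed members the knockout share was 4.43-fold lower (2.39 to 8.97). Among cells without a UMI of the thymocyte genes Rag1 and Dntt it was 3.76-fold lower (2.08 to 7.35).

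A cell with few UMIs is less likely to show every gene the rule asks for. After every cell was thinned to 1000 UMIs, the rule found 19 of 3773 cells in WT PBS (0.504%), 18 of 5697 in WT OVA (0.316%) and 3 of 3469 in DJ-1 KO OVA (0.0865%). The order of the libraries was the same as without thinning, although the knockout value rests on 3 cells.

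Nonclassical monocytes, neutrophils and B cells were also less frequent in the knockout library, while dendritic cells were not. Nonclassical monocytes (at least 2 UMIs over Treml4, Ace and Adgre4, with Csf1r) numbered 52, 59 and 14 cells and their share was 3.07-fold lower in the knockout library than in WT OVA (1.69 to 5.96). Neutrophils numbered 563, 592 and 170 and were 2.54-fold lower, and B cells numbered 513, 627 and 181 and were 2.53-fold lower. Interstitial macrophages (C1q-positive tissue macrophages) numbered 32, 45 and 24, at 0.732 of the WT OVA share (0.426 to 1.23). Dendritic cells numbered 11, 42 and 34, at 1.11 of the WT OVA share (0.685 to 1.79). They were chosen by Flt3 and by at least 10 UMIs over H2-Aa, H2-Ab1, H2-Eb1 and Cd74. Cells without a Rag1 or Dntt UMI were 6074 of 6092 kept cells in WT OVA and 3535 of 4441 in DJ-1 KO OVA. Among them nonclassical monocytes were 2.45-fold lower in the knockout library, neutrophils 2.08-fold and B cells 2.05-fold. Interstitial macrophages were there at 0.916 of the WT OVA share and dendritic cells at 1.35 (0.829 to 2.18). Because shares sum to the whole, a lower share of 1 population can follow from more cells of others.

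There were 1.21, 1.42 and 0.929 classical monocytes for each nonclassical monocyte (0.402 to 2.13 for the last). These intervals overlap. For each dendritic cell there were 5.73, 2.0 and 0.382 classical monocytes, so that the balance of the 2 populations was lowest in the knockout library (0.185 to 0.743).

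**Figure D3:**
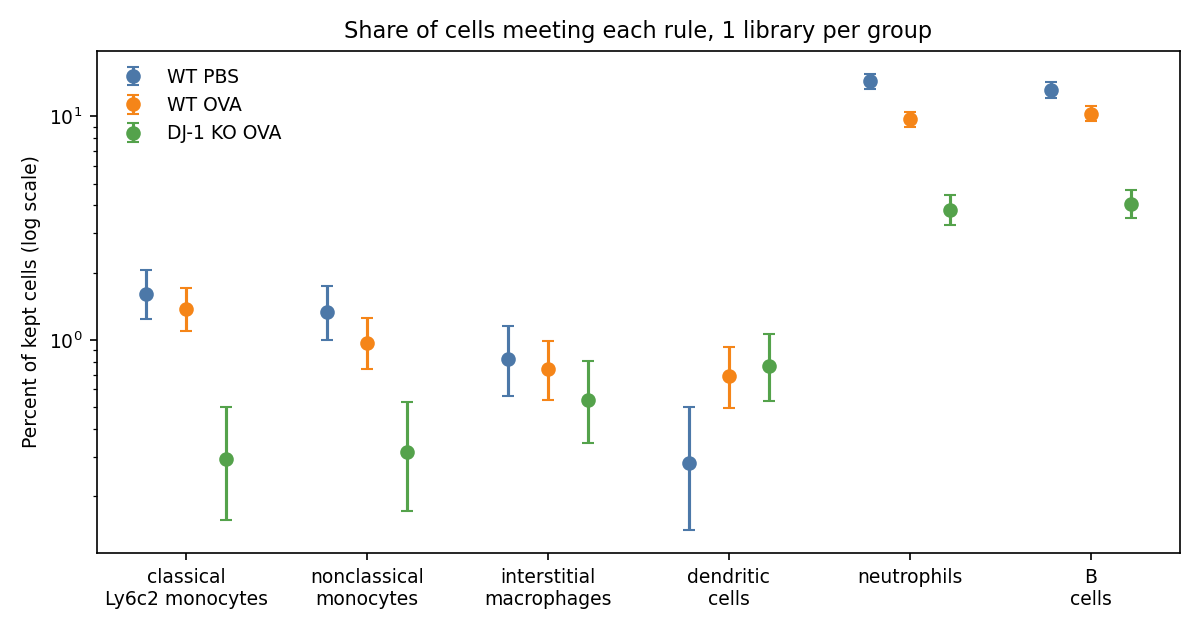
Percent of kept cells that meet the rule of each population on a log scale, with 95% Clopper-Pearson intervals as bars, in 1 library per group. Classical monocytes make up 1.61%, 1.38% and 0.293% of the libraries, and the knockout point lies below both others for classical and nonclassical monocytes.

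Park7, the gene targeted in the knockout, was counted with 84, 47 and 1 UMIs in the members. Its level was 137, 91.8 and 14.4 CPM. The knockout level was 0.157 of the WT OVA level (0.00389 to 0.919), on 1 UMI. In B cells of the same libraries, which hold more cells, Park7 stood at 94.3, 74.7 and 3.62 CPM.

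Within each library the members differed from nonclassical monocytes in genes the rule did not ask for. Lyz2 stood at 16064, 8354 and 5533 CPM in members, against 5823, 3969 and 4514 CPM in nonclassical monocytes. S100a4, a calcium-binding protein of motile cells, stood at 2647, 2013 and 2089 CPM against 915, 720 and 465 CPM. Fn1, which encodes fibronectin, stood at 1361, 1396 and 2003 CPM against 210, 581 and 762 CPM. Plac8 was higher in members in all 3 libraries as well, at 3867, 3270 and 2911 CPM against 2046, 2444 and 1319 CPM. Ace, which encodes angiotensin-converting enzyme and was part of the nonclassical rule, was the other way round, at 109, 54.7 and 0 CPM in the members.

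Members varied in state from cell to cell. After thinning to 1000 UMIs, Fn1 was detected in 57.1%, 61.9% and 76.9% of members, and S100a4 in 74.6%, 84.5% and 92.3%, while B cells treated alike, which give the level of free RNA, held Fn1 in 0.783%, 1.20% and 2.16% and S100a4 in 0.783%, 0.859% and 0.719%. Nr4a1, an immediate early gene and a transcription factor needed by nonclassical monocytes, was detected in 73.0%, 81.0% and 76.9% of members and in 28.8%, 30.6% and 31.7% of B cells, which also use immediate early genes. Il1b, which encodes interleukin-1 beta, was detected in 50.8%, 65.5% and 69.2%, beside 3.33%, 5.33% and 1.44% of B cells. Arg1, an enzyme of alternatively activated macrophages, was not detected in thinned members, and unthinned it had 1, 0 and 0 UMIs. This limits cells with a UMI at this depth (to 4.76%, 3.57% and 23.1% of thinned members), not cells that express the gene.

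Ovalbumin challenge of wild-type mice was compared with PBS first. Genes of MHC class II, which presents antigen to CD4 T cells, were higher in WT OVA members with and without the mixed members. H2-Aa, the alpha chain of I-A, stood at 176 CPM with PBS and 734 CPM with ovalbumin, 4.18-fold higher (3.37 to 5.23). H2-Ab1, the beta chain of I-A, stood at 252 and 619 CPM, 2.46-fold higher (2.02 to 2.998). H2-Eb1, the beta chain of I-E, stood at 91.1 and 353 CPM, 3.88-fold higher. Cd74, the invariant chain that guides class II molecules to the endosome, stood at 813 and 1921 CPM, 2.36-fold higher (2.12 to 2.64). Without mixed members and members with Flt3, the ratios were 4.48, 2.24, 3.29 and 2.14 for H2-Aa, H2-Ab1, H2-Eb1 and Cd74. With at least 2 UMIs required of Ly6c2 and of Ccr2, the log2 ratios were 1.51, 0.70, 1.30 and 0.61 in the same order, so that H2-Ab1 and Cd74 were no longer past 2-fold.

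The class II signal was uneven among cells. H2-Aa UMIs occurred in 9 of 63 WT PBS members and 28 of 84 WT OVA members. In WT PBS, 1 cell held 67.6% of all H2-Aa UMIs, whereas the richest cell in WT OVA held 9.57%. At 1000 UMIs per cell, H2-Ab1 was detected in 7 of 63 WT PBS members (11.1%) and 20 of 84 WT OVA members (23.8%). Ciita, the master regulator of class II transcription, had 4 and 9 UMIs, too few to compare. Even in WT OVA the members stood far below interstitial macrophages, which had 6515 CPM of H2-Aa. Dendritic cells had 6470 CPM, but they were chosen partly by H2-Aa itself, so their level is given only as a description.

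Of the 12 class II presentation genes, 9 had at least 40 UMIs over both libraries, and 4 were at least 2-fold higher (H2-Aa, H2-Ab1, H2-Eb1 and Cd74) and 1 at least 2-fold lower (Cd86, a costimulator). Without mixed members the same 4 were higher and none was lower. Ifi30, a lysosomal thiol reductase that prepares antigen, stood at 613 and 346 CPM, a ratio of 0.564. Without mixed members it stood at 681 and 505 CPM. Across all 3885 genes with 40 UMIs, 3.58% were past 2-fold higher and 3.68% past 2-fold lower, 7.26% in all. The list had a median log2 ratio of 0.51, beside -0.17 over all genes. Its summed level was 3855 and 5355 CPM, 1.39-fold higher in WT OVA (1.31 to 1.47). Under the rule with 2 UMIs each of Ly6c2 and Ccr2 the summed log2 ratio was 0.093 (-0.0051 to 0.19), so the summed difference was lost. Dendritic cell markers in the members summed to 106 and 137 CPM, and their part in this result was not tested.

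Ccl2 and Cxcl10 were the chemokines past 2-fold higher in WT OVA members both with and without the mixed members. Ccl2, the main ligand of CCR2, stood at 34.1 CPM with PBS and 113 CPM with ovalbumin, 3.32-fold higher (1.98 to 5.75), with UMIs in 10 and 21 members. Cxcl10, an interferon-induced ligand of CXCR3, stood at 161 and 357 CPM, 2.22-fold higher (1.73 to 2.86), with UMIs in 27 and 29 members. A single WT OVA cell held 33.3% of the Cxcl10 UMIs. Of the 10 chemokines with enough UMIs, 3 were past 2-fold higher (Ccl2, Cxcl10 and Cxcl16) and 1 lower (Ccl5), and without mixed members 2 of 8 were higher (Ccl2 and Cxcl10) and none lower. The chemokines had a median log2 ratio of 0.19, while their summed level had a ratio of 0.928 over all members and 1.09 without mixed members, so its direction depended on those cells.

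Inflammatory cytokines did not differ by 2-fold. None of 20 measured genes of the inflammatory cytokine and NF-kB list was past 2-fold in either direction. Il1b stood at 2504 CPM with PBS and 2700 CPM with ovalbumin, a ratio of 1.08 (1.00 to 1.16), and 1.49 without mixed members. The summed ratio was 0.904 over all members and 1.17 without mixed members, and the median log2 ratio was -0.14.

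Lyz2 was 1.92-fold lower in WT OVA members than in WT PBS members (16064 and 8354 CPM), and the ratio without mixed members was 0.566. Csf1r, the receptor for the growth factor on which monocytes depend, stood at 637 and 326 CPM, a ratio of 0.512 (0.424 to 0.615), and 0.654 without mixed members. Of 20 measured classical monocyte genes outside the rule, none was past 2-fold higher and 2 were past 2-fold lower. These were Fcgr1, the high-affinity IgG receptor, at 73.2 and 29.3 CPM, and Ifi27l2a, an interferon-induced gene, at 2618 and 1156 CPM. The list summed to 36308 and 23296 CPM, a ratio of 0.642, and 0.749 without mixed members, where 1 of 20 genes was lower (Fcgr1), and the median log2 ratio over all members was -0.24.

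Of 15 measured pattern recognition and Fc receptor genes, 3 were past 2-fold lower in WT OVA members (Clec4a2, Fcgr1 and Fcgr3) and none higher. The median log2 ratio of the list was -0.57 and its summed ratio 0.713. Without mixed members 2 of 14 were lower (Clec4a2 and Fcgr1), the median was -0.17 and the summed ratio 0.888. Clec4a2, an inhibitory lectin, stood at 127 and 50.8 CPM, a ratio of 0.400 (0.246 to 0.631). In the interferon response list 1 of 20 genes was past 2-fold higher (Ifi47) and 2 lower (Irf7 and Bst2), with a summed ratio of 0.789 and a median log2 ratio of -0.18. Without mixed members 1 of 19 was higher (Ifi47) and none lower, with a summed ratio of 0.879. Ifitm3, an interferon-induced antiviral membrane protein abundant in these cells, stood at 3703 and 2019 CPM, a ratio of 0.545 (0.506 to 0.587).

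Several hypoxia and glycolysis genes were lower in WT OVA members. Eno1, a glycolytic enzyme, stood at 358 and 143 CPM, a ratio of 0.398. Vegfa, a growth factor for blood vessels induced by low oxygen, stood at 128 and 50.8 CPM, a ratio of 0.395 (0.243 to 0.622). Hilpda, a hypoxia-induced lipid droplet protein, stood at 76.4 and 23.4 CPM, a ratio of 0.307. These were the 3 of 14 measured genes of the list past 2-fold lower, none was higher, and the same 3 of 13 were past it without mixed members. All 20 genes of the list had a summed ratio of 0.693, and 0.805 without mixed members. The measured genes had a median log2 ratio of -0.41, and -0.12 without mixed members.

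Slc7a11, the cystine transporter that feeds glutathione synthesis and is a target of NRF2, stood at 288 and 133 CPM, a ratio of 0.461. Hmox1, the haem-degrading enzyme and another such target, stood at 27.6 and 156 CPM, 5.65-fold higher (3.32 to 10.2), but 71.2% of the WT OVA UMIs sat in 1 cell. Of 19 measured NRF2 and antioxidant genes, 3 were past 2-fold higher (Hmox1, Gclc and Cat) and 1 lower (Slc7a11). Without mixed members Hmox1 alone was higher. Nqo1, a much used readout of NRF2, had 0 UMIs in all members. The summed ratio was 0.952 and the median log2 ratio -0.062.

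Markers of maturation into macrophages gave a split picture. Lpl, the lipoprotein lipase of lipid-handling macrophages, stood at 73.2 and 178 CPM, 2.43-fold higher (1.68 to 3.55), and 3.69-fold without mixed members. Over all members 4 of 18 measured genes of the list were past 2-fold higher (Cd63, Cd9, Lpl and Cd36), and without mixed members 1 of 14 (Lpl). Macrophage genes as a list had a summed ratio of 0.807 and a median log2 ratio of -0.13. Alternative activation genes had a summed ratio of 3.46 that came from Retnla, with 1 UMI against 710 in WT OVA, of which 52.7% were in 1 cell. Without mixed members this ratio was 0.958.

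None of 14 measured monocyte transcription factors was past 2-fold between the wild-type libraries. Cebpb, a factor of myeloid inflammatory genes, stood at 3112 and 2872 CPM, and Irf8, which directs monocyte and dendritic cell lineages, at 176 and 127 CPM. Klf4, needed for Ly6C-positive monocytes, stood at 314 and 285 CPM. The factors had a median log2 ratio of -0.17 and a summed ratio of 0.880, and 1.11 without mixed members. In the remaining 8 lists, 0 or 1 gene was past 2-fold in each direction.

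**Figure D4:**
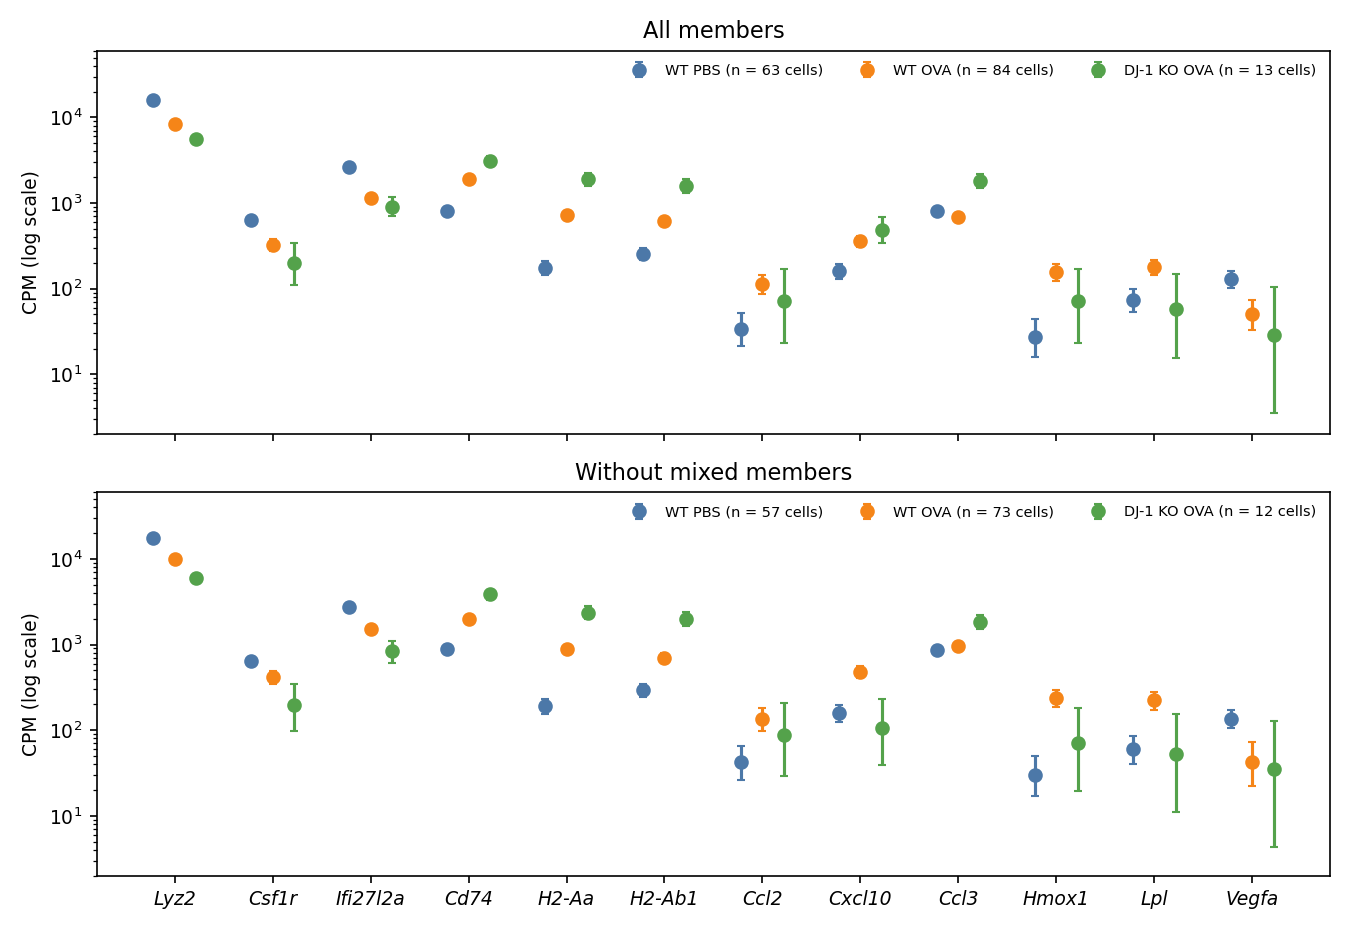
CPM on a log scale of 12 genes in the members of the 3 libraries, over all members (top, 63, 84 and 13 cells) and without mixed members (bottom, 57, 73 and 12 cells), with exact Poisson 95% intervals for counting error as bars. In both panels H2-Aa, H2-Ab1, Cd74, Ccl2, Cxcl10 and Lpl are higher in WT OVA than in WT PBS, and Lyz2, Csf1r, Ifi27l2a and Vegfa are lower.

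Ranked over all genes by the interval bound nearest to no difference, the 12 genes highest in WT OVA members were Scgb1a1, Scgb3a1, Lyz1, Scgb3a2, Wfdc2, Cyp2f2, Chil1, Lcn2, Cbr2, Sftpa1, Cxcl15 and Cp. Scgb1a1, the main secretory protein of club cells, had 306 UMIs with PBS and 35361 with ovalbumin, and its ratio of 139 became 2.26 without mixed members. Sftpa1, a surfactant protein of alveolar type 2 cells, had a ratio of 19.3 that became 1.07. The 12 lowest began with Igfbp5, Upk3b, Aqp1 and Rarres2, and Igfbp5 had 356 and 6 UMIs, with UMIs in 3 and 4 cells.

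Without the mixed members the 12 highest genes were Hmox1, H2-Aa, H1f0, H2-Eb1, Lpl, Cxcl10, Hist1h1c, Marcksl1, Cd74, H2-Ab1, Ccl2 and Spata13. H1f0, a linker histone of non-dividing cells, stood at 32.5 and 203 CPM over all members, 6.24-fold higher, and 4.54-fold without mixed members. Marcksl1, an actin-associated membrane protein, stood at 397 and 730 CPM, 1.84-fold higher, and 2.55-fold without mixed members. The 12 lowest were Ubb, Commd4, Hilpda, Rb1cc1, Vegfa, Ppp1r12a, Slc7a11, Lyz2, Ifi27l2a, Calr, Ftl1 and Tbc1d15. Ubb, a ubiquitin gene, stood at 972 and 539 CPM, and Calr, a calcium-binding chaperone of the endoplasmic reticulum, at 532 and 246 CPM. In this selection 51 of 3036 genes (1.68%) were past 2-fold higher and 70 (2.31%) lower.

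Knockout and wild-type monocytes of ovalbumin-challenged mice were then compared, on 13 knockout cells. Class II genes were higher in the knockout members as a whole and lower once members with Flt3 (4 knockout and 9 WT OVA cells) were left out. H2-Aa stood at 734 CPM in WT OVA and 1902 CPM in DJ-1 KO OVA (2.59-fold, 2.11 to 3.17), H2-Ab1 at 619 and 1599 CPM, and Cd74 at 1921 and 3112 CPM. All 132 H2-Aa and 111 H2-Ab1 UMIs of the knockout members came from 3 cells, each with a Flt3 UMI. In the 9 knockout members without Flt3, H2-Aa, H2-Ab1 and H2-Eb1 had 0 UMIs and Cd74 was at 0.122 of the WT OVA level.

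Of 8 measured class II presentation genes, 4 were past 2-fold higher (H2-Aa, H2-Ab1, H2-DMb1 and Ifi30) and none lower, with a median log2 ratio of 1.01, against 9.22% higher and 8.54% lower, 17.8% in all, among the 2202 measured genes. Without mixed members 4 of 8 were again higher, with H2-Eb1 in place of H2-DMb1. Over all members the list summed to 5355 CPM in WT OVA and 9799 CPM in DJ-1 KO OVA, a ratio of 1.83 (1.68 to 1.99). Without members with Flt3 the ratio was 0.342 (0.269 to 0.428), the opposite direction, and with at least 2 UMIs required of Ly6c2 and of Ccr2 its log2 ratio was -1.19. The dendritic cell markers of the members summed to 137 and 850 CPM in the same 2 libraries.

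The inflammatory chemokines Ccl3 and Ccl4 were higher in the knockout members. Ccl3 stood at 802, 693 and 1816 CPM, 2.62-fold above WT OVA (2.12 to 3.22). Ccl4 stood at 598, 713 and 2176 CPM, 3.05-fold above WT OVA (2.51 to 3.70). Both were spread over the knockout members, with UMIs in 9 and 10 of 13 cells. Without mixed members the ratios were 1.93 and 1.69, and without mixed and Flt3 members 2.85 and 2.37.

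Cxcl1, a neutrophil attractant, stood at 109, 158 and 677 CPM, 4.28-fold above WT OVA, with UMIs in 5 knockout cells and 57.4% of them in 1 cell. These were the 3 of 8 measured chemokines past 2-fold higher, and none was lower. Without mixed members 1 was higher (Cxcl1) and 1 lower (Cxcl10). The median log2 ratio of the 8 measured chemokines was 0.43, and the summed ratio of all 18 chemokines of the list was 1.42. Cxcl10 was at 1.37 of its WT OVA level over all members and at 0.224 without the mixed one, which held 82.4% of the knockout UMIs. Ccl2 had 5 UMIs in the knockout members.

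In the inflammatory cytokine list 4 of 19 genes were past 2-fold higher (Il1rn, Il6, Tnfaip3 and Bcl2a1d) and 1 lower (Bcl2a1b). Without mixed members 0 of 17 were past 2-fold. Il1b stood at 2700 CPM in WT OVA and 2795 CPM in DJ-1 KO OVA, a ratio of 1.04 (0.886 to 1.20). The summed ratio was 1.34 over all members and 1.10 without mixed members, with a median log2 ratio of 0.34 over all members.

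Several genes of monocyte regulation and signalling were lower in the knockout members. Id2, an inhibitor of basic helix-loop-helix factors, stood at 229, 295 and 43.2 CPM, at 0.147 of the WT OVA level (0.0299 to 0.437), on 3 UMIs. Irf1, an interferon-induced transcription factor, stood at 169, 184 and 14.4 CPM, on 1 UMI (ratio 0.0785, 0.00197 to 0.448). Irf8 stood at 127 and 28.8 CPM, a ratio of 0.227 (0.0269 to 0.854) on 2 UMIs. Lst1, a myeloid transmembrane protein, stood at 880, 543 and 187 CPM, a ratio of 0.345 (0.181 to 0.600).

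Tyrobp, the adaptor of activating myeloid receptors also known as DAP12, stood at 2475, 1593 and 807 CPM, a ratio of 0.506 (0.379 to 0.664). Cx3cr1 stood at 252, 185 and 72.05 CPM, a ratio of 0.388 (0.123 to 0.939) on 5 UMIs. Cebpb stood at 3112, 2872 and 1859 CPM, a ratio of 0.647 (0.536 to 0.775), and 0.541 without mixed and Flt3 members. Lgals3, the lectin galectin-3, stood at 1860, 1054 and 576 CPM, a ratio of 0.547. Klf4 was at 0.708 of its WT OVA level over all members and at 0.155 without the mixed one. For Id2, Lst1, Tyrobp and Irf1 the ratio was below 0.6 with all members, without mixed members, without Flt3 members and without both. With at least 2 UMIs required of Ly6c2 and of Ccr2, Cebpb had a log2 ratio of -0.25 (-0.55 to 0.026). Klf4 was then at -0.088 (-1.05 to 0.75) and Cx3cr1 at -0.76 (-2.44 to 0.54). Under that rule Id2, Lst1, Tyrobp, Irf1, Irf8 and Lgals3 were at -2.73, -1.43, -0.98, -3.09, -2.73 and -1.47.

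The classical monocyte genes outside the rule summed to 23296 CPM in WT OVA and 20534 CPM in DJ-1 KO OVA, a ratio of 0.881 (0.834 to 0.931). None of the 19 measured was past 2-fold higher and 1 was lower (Hp), and their median log2 ratio was 0.083, opposite in sign to the summed ratio, beside 0.15 over all genes. The summed ratio was 0.711 without mixed members, where 3 of 18 were lower (Thbs1, Csf1r and Klf4), 1.14 without Flt3 members and 0.992 without both. Lyz2 likewise was at 0.662 of the WT OVA level over all members and 0.914 (0.818 to 1.02) without Flt3 members. Cd14, a co-receptor for bacterial lipopolysaccharide, stood at 845 and 1427 CPM, a ratio of 1.69 (1.34 to 2.10), and 2.38 without mixed and Flt3 members. Csf1r stood at 326 and 202 CPM, a ratio of 0.619 (0.331 to 1.07).

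Of 18 measured NRF2 and antioxidant genes, none was past 2-fold higher in the knockout members and 6 were lower (Hmox1, Gclc, Prdx2, Txn1, Cat and Park7 itself). Without mixed members 2 of 15 were lower (Hmox1 and Prdx2), with a median log2 ratio of -0.31. For Hmox1 this rests on 73 WT OVA UMIs, of which 78.1% were in 1 cell, against 4 UMIs in the knockout. Over all members the median log2 ratio was -0.69 and the summed ratio 0.787 (0.710 to 0.871). Without mixed and Flt3 members the summed ratio was 0.961. Of 15 measured macrophage differentiation genes, 5 were past 2-fold lower (Cd63, Fabp5, Cd9, Lpl and Cd36), with a median log2 ratio of -0.87, and the summed ratio of 0.777 was 0.936 without mixed and Flt3 members. Without mixed members 5 of 10 were lower (Apoe, Cd68, Lgals3, Ctsd and Lpl), and Lpl is the gene that both sets share.

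Of 9 measured interferon genes, none was higher and 3 were lower (Irf1, Ifi204 and Gbp2), with a median log2 ratio of -0.54, a summed ratio of 0.795 (0.678 to 0.928) and 0.847 without mixed and Flt3 members. Without mixed members 2 of 7 were lower (Irf1 and Ifi204). Pattern and Fc receptor genes summed to a ratio of 0.879 with 1 of 11 lower (Fcgr3), 0.761 without mixed members with 2 of 11 lower (Fcgr3 and Tyrobp), and 1.08 without mixed and Flt3 members. Glycolysis and hypoxia genes summed to a ratio of 0.946 (0.798 to 1.12) with 0 of 9 past 2-fold, and monocyte transcription factors to 0.962 with 1 of 12 lower (Irf8), while the median log2 ratio of those factors was 0.069. Without mixed members 1 of 12 factors was higher (Bhlhe40) and 3 lower (Cebpb, Irf8 and Klf4), with a summed ratio of 0.707. Of 3 measured alternative activation genes, 2 were lower (Retnla and Tgm2), and without mixed members 0 of 1. In the other 8 lists, 0 or 1 gene was past 2-fold in each direction over all members, while without mixed members 3 of 5 coagulation and matrix genes were lower (Thbs1, Plaur and Tgfbi). Retnla had 710 UMIs in WT OVA and 11 in DJ-1 KO OVA over all members, and its ratio of 0.114 became 12.4 (3.45 to 54.9) without mixed members. After thinning, 30.8% of knockout members and 28.1% of knockout B cells held a Retnla UMI, so its detection in these members is at the level of free RNA.

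**Figure D5:**
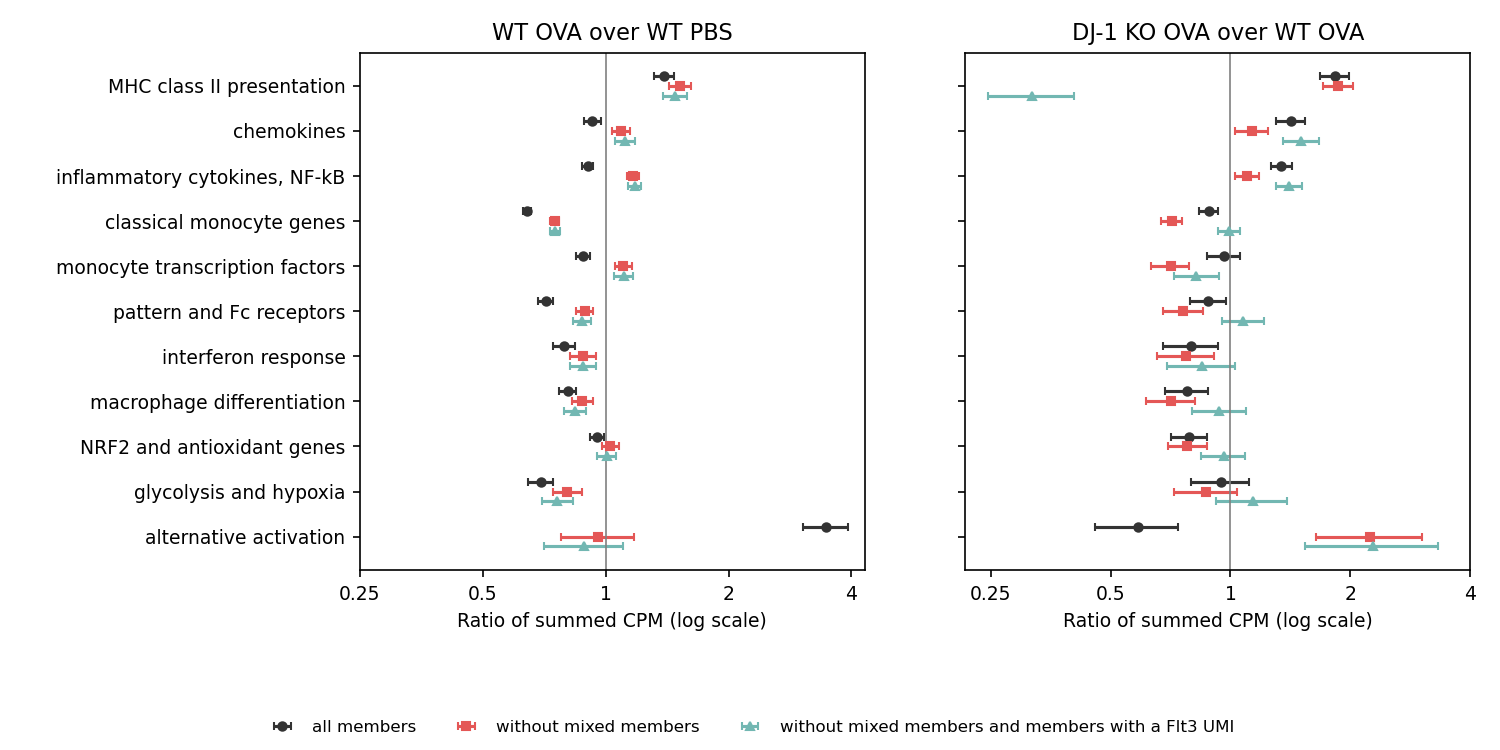
Ratio of summed CPM for 11 gene lists on a log scale, WT OVA over WT PBS on the left and DJ-1 KO OVA over WT OVA on the right, over all members, without mixed members, and without mixed and Flt3 members, with exact conditional 95% intervals for counting error as bars. MHC class II lies above 1 in all 3 selections on the left, and on the right it goes from 1.83 and 1.86 to 0.318 once Flt3 members are left out.

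The 12 genes ranked highest in knockout members were Gas6, Tcf4, Fkbp5, Jak2, Cxcl1, Inmt, Ccl4, Mfap4, Gsn, Macf1, Tagap and Bnip2. All 26 Gas6 UMIs of the knockout library were in 1 cell, the mixed one. A single knockout cell also held 100% of the Inmt UMIs, 100% of the Mfap4 UMIs, 82.2% of the Gsn UMIs and 54.3% of the Macf1 UMIs. Without mixed members none of these 5 genes was among the 12 highest. Tcf4, a factor of plasmacytoid dendritic cells, stood at 103 and 533 CPM, a ratio of 5.15 that was 0.498 without mixed and Flt3 members. Jak2, a cytokine receptor kinase, stood at 66.4 and 346 CPM, a ratio of 5.21 (2.96 to 9.05) and 2.42 without those cells. The 12 lowest were genes of airway and alveolar epithelium such as Sftpa1 and Scgb1a1, and Scgb1a1 went from a ratio of 0.0134 to 1.37 (0.993 to 1.87) without mixed members. In that selection the lowest included Lst1, Id2, Klf4, Ppp2r5c, Cxcl10, Cebpb, Irf1, Tyrobp, Thbs1, Tgfbi and Lgals3, among 1484 measured genes of which 4.65% were past 2-fold higher and 7.68% lower.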

How the data were processed

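Droplet 3' single-cell libraries were made from pooled lung cells with version 3 reagents, per the labels' protocols. Each library was deposited as a matrix of raw UMI counts per gene and cell barcode. Cell Ranger, STAR and the mm10 build are named in the submitters' processing notes, and software version 3.1.0 in the file headers. Kept cells had 200 genes or more and no more than 20% of UMIs from mitochondrial genes, and of each barcode found in both WT PBS and DJ-1 KO OVA the cell with fewer UMIs was dropped. Doublets were scored with Scrublet (scanpy 1.11.5) and not removed in the main values. Analysis used Python 3.11.15 with numpy 2.4.6, scipy 1.17.1 and pandas 2.3.3.

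Raw counts were summed over the members of each library and scaled to CPM. Ratios carry exact conditional binomial 95% intervals, levels exact Poisson intervals and shares Clopper-Pearson intervals, all for counting error only. A gene counted as measured with at least 40 UMIs over both libraries, and past the fold at 2-fold or more. The summed level of a list is over all its genes found in the data, and the median log2 ratio over its measured genes. With 1 library per group no test was run. Counting code was tested on simulated data.

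Named were Park7, genes of the rule, of the lists and of the cell type markers, the 15 genes most in excess over other cells, and, in each comparison, the 12 highest and 12 lowest by the interval bound nearest to no difference. Ranked genes had to reach, in the library where they were higher, at least 0.5 of the level in other cells, and mitochondrial, ribosomal, haemoglobin, immunoglobulin, T cell receptor and unnamed genes were left out. Results of a few genes that these rules name are not reported here. The members, lists and rules were chosen with earlier results of these data known. The mixed and Flt3 selections were added after seeing the values. Alternatives covered cell filters, the member rule, doublets, shared barcodes, thinning, scaling, equal weight per cell, the UMI minimum and the fold.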

Additional observations from a re-analysis of the deposited data

How the results depend on the processing

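No paired analysis was possible because each group is 1 library. In all, 1949 values of 213 results were recomputed under alternatives. The value stayed within the main interval, or a count within 1.5 times, in 1473, moved in 422 and counted as turned in direction in 54. A turn was counted only where the main interval excluded no difference. For a gene compared between libraries the main ratio also had to be past 2-fold. Other changes of sign are among the values that stayed or moved. Leaving out mixed members, cells over 15000 UMIs or Flt3 members was chosen after seeing the data, and the first 2 overlap. The stricter rule asks for 2 UMIs each of Ly6c2 and Ccr2, thinning is to 1000 UMIs per cell, and median scaling sets the median log2 ratio over genes (-0.17 for WT OVA over WT PBS, 0.15 for the knockout comparison) to 0. The knockout members number 13, which limits every knockout value. Thinned values rest on few UMIs. Causes of the shifts below were not tested, beyond the fewer cells or genes each alternative leaves.

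The share of members, WT OVA against WT PBS, had a log2 ratio of -0.23, which was 0.37 with at least 1000 genes per cell. Under the stricter rule it was -0.61 (-1.19 to -0.033), within the main interval but with an interval below 0. The 4.71-fold lower knockout share stayed lower in every alternative run.

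In the wild-type comparison 139 genes were past 2-fold higher. There were 71 under the stricter rule, 51 without mixed members, 84 without cells over 15000 UMIs, 55 without mixed and Flt3 members, 17 after thinning, 337 at a minimum of 20 UMIs, 51 at a minimum of 100 UMIs and 283 at 1.5-fold. The 143 genes past 2-fold lower became 70 without mixed members, 63 without cells over 15000 UMIs, 55 without mixed and Flt3 members, 14 after thinning, 78 after median scaling, 341 at 20 UMIs, 36 at 100 UMIs and 651 at 1.5-fold. In the knockout comparison the 203 higher genes became 88 under the stricter rule, 69 without mixed members, 96 without cells over 15000 UMIs, 49 without mixed and Flt3 members, 13 after thinning, 123 with cells weighted alike, 125 after median scaling, 520 at 20 UMIs, 47 at 100 UMIs and 551 at 1.5-fold. The 188 lower genes became 109 under the stricter rule, 114 without mixed members, 117 without mixed and Flt3 members, 31 after thinning, 507 at 20 UMIs, 50 at 100 UMIs and 368 at 1.5-fold.

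All values that follow are log2 ratios. MHC class II genes in the wild-type comparison stood at 0.47 and were 0.093 under the stricter rule, 0.60 without mixed members, 0.60 without cells over 15000 UMIs, 0.35 without Flt3 members, 0.56 without mixed and Flt3 members, 0.56 with cells weighted alike and 0.64 after median scaling. In the knockout comparison they stood at 0.87 and were 1.15 with both cells of shared barcodes removed, 0.73 without the Chil3 and S100a8 limits, 0.67 without cells over 15000 UMIs, 0.50 after thinning, 0.31 with cells weighted alike and 0.72 after median scaling. They turned to -1.19 under the stricter rule, -1.55 without Flt3 members and -1.65 without mixed and Flt3 members. H2-Aa turned from 1.37 to -4.65 under the stricter rule, and H2-Ab1 from 1.37 to -2.77 there and to -0.41 after thinning. H2-Aa of knockout members against nonclassical monocytes of their library went from 1.12 to -0.0086 with cells weighted alike.

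The classical monocyte genes in the wild-type comparison stood at -0.64 and were -0.54 under the stricter rule, -0.42 without mixed members, -0.46 without cells over 15000 UMIs, -0.41 without mixed and Flt3 members, -0.46 after thinning, -0.38 with cells weighted alike and -0.47 after median scaling. In the knockout comparison they stood at -0.18 and were -0.068 without the Chil3 and S100a8 limits, -0.022 under the stricter rule, -0.49 without mixed members, -0.44 without cells over 15000 UMIs, 0.19 without Flt3 members, -0.011 without mixed and Flt3 members, -0.33 after thinning and -0.33 after median scaling.

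Among wild-type comparisons that turned direction, chemokines went from -0.11 to 0.056 under the stricter rule, 0.12 without mixed members, 0.16 without mixed and Flt3 members, 0.11 after thinning, 0.062 with cells weighted alike and 0.059 after median scaling. Inflammatory genes went from -0.15 to 0.22 without mixed members, 0.092 without cells over 15000 UMIs, 0.24 without mixed and Flt3 members, 0.17 after thinning, 0.16 with cells weighted alike and 0.021 after median scaling. Monocyte transcription factors went from -0.19 to 0.14 without mixed members, 0.10 without cells over 15000 UMIs, 0.14 without mixed and Flt3 members, 0.15 after thinning and 0.11 with cells weighted alike. NRF2 genes went from -0.071 to 0.038 without mixed members, 0.033 without cells over 15000 UMIs, 0.0077 without mixed and Flt3 members, 0.10 with cells weighted alike and 0.096 after median scaling. Alternative activation genes went from 1.79 to -0.063 without mixed members and -0.18 without mixed and Flt3 members. Igfbp5 went from -5.63 to 2.27 without mixed members, 3.06 without cells over 15000 UMIs and 1.61 without mixed and Flt3 members.

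Among knockout comparisons, alternative activation genes went from -0.77 to 0.74 under the stricter rule, 1.16 without mixed members, 0.82 without cells over 15000 UMIs, 1.19 without mixed and Flt3 members, 0.82 after thinning and 0.48 with cells weighted alike. Retnla went from -3.13 to 3.63, 0.61, 3.99 and 0.37 without mixed members, without cells over 15000 UMIs, without mixed and Flt3 members, and after thinning. Scgb1a1 went from -6.23 to 0.46, 0.54 and 0.47 in the first 3 of these. Pattern and Fc receptors went from -0.19 to 0.20 without Flt3 members and 0.11 without mixed and Flt3 members, and Tcf4 from 2.37 to -1.01 in the latter. After thinning, macrophage differentiation genes went from -0.36 to 0.024, Cx3cr1 from -1.36 to 0.28 and Park7 from -2.67 to 1.11.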
